A study of Mus musculus with 2 samples.

Results

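The cytosolic ribosomal protein genes encode the protein parts of the ribosome that translates messenger RNA in the cytoplasm. They were taken here as every gene whose symbol is Rpl or Rps followed by a digit, with Rplp0, Rplp1, Rplp2 and Rpsa, and without the Rps6k kinases and the -ps symbols used for pseudogenes. This gave 87 of 27998 genes, of which 33 are named for the small subunit and 53 for the large one. Rps19bp1, which encodes a protein that binds Rps19 and is not itself a subunit, was the other one. In the wild-type library 86 of them had at least 1 transcript counted, and all 87 did in the other library.

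The genes were read in single cells of the mouse lambdoid junction at E11.5 (days of embryonic development), the place in the upper face at which nasal and maxillary tissue meet. The first library came from wild-type embryos and the second from embryos labelled Crect; ROSA26-lacZ, and the strain label of both is C57BL/6J. Crect is a transgene that makes Cre recombinase in the ectoderm, and ROSA26-lacZ is a reporter. Each library pooled dissociated tissue of 4 to 5 embryos, so there was 1 library per genotype and no test between genotypes was possible.

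Transcripts were counted as unique molecular identifiers (UMIs), tags that mark single captured molecules at their 3' end. A molecule is counted once whatever its length, so CPM, a gene's UMIs scaled to the same library total, can be set side by side between genes without a length correction. Cells with at most 10% of UMIs from mitochondrial genes were kept, which left 7909 wild-type cells with 126296568 UMIs and 6687 Crect lacZ cells with 126395819 UMIs. The median depth was 14112 UMIs per cell in the wild-type library and 17581 in the Crect lacZ library. The libraries shared 76 cell barcodes. Intervals on levels, ratios and shares are 95% intervals that cover counting error only.

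Each ribosome holds 1 copy of nearly every ribosomal protein, and the acidic stalk proteins Rplp1 and Rplp2 are an exception. Vertebrate messages of these genes typically begin with a C followed by a run of pyrimidines, through which the mTOR pathway controls their translation. Loss of a single ribosomal protein gene can give Diamond-Blackfan anaemia, in which red cell formation fails, and neural crest cells of the face are also known to be sensitive to faults in ribosome production.

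Promoter sequences of 66 of the 87 genes were found in RefSeq (build GRCm38.p6), as windows of 300 bases from 250 before to 50 after the annotated start. An annotated start on C with 4 or more pyrimidines directly after it was present in 14 of the 66 genes (21.2%). Among all 27025 genes with a window it was present in 813 (3.01%). A run that began beside the annotated base was not counted, and whether these bases are the true starts was not tested. The motif CCGGAAG, the core of an Ets factor site, lay on either strand in 26 of the 66 (39.4%) and in 9.93% of all genes. CTTTCC, on either strand, lay in 36 (54.5%) and in 29.3% of all genes. TATAAA, on either strand, lay in 7 (10.6%) and in 15.7% of all genes. The motifs can overlap, and a gene with several windows counts once if any holds the motif. These matches are descriptions of the windows and were not set against binding data. The lines below give 60 bases from 45 before the annotated start for genes named further on, with the unbroken run of pyrimidines from the start in capitals. Rps27 (chr3:90213634-90213693, minus strand) and its near copy Rps27rt (chr9:114982725-114982784, minus strand) are shown because they were both higher in ectoderm, as was Rpl38 (chr11:114668535-114668594, plus strand). Rpl28 (chr7:4792920-4792979, plus strand) was higher in endothelium, Rps21 (chr2:180257334-180257393, plus strand) differed between the libraries, and Rpl35a (chr16:33056437-33056496, plus strand) is linked to Diamond-Blackfan anaemia.
Rps27: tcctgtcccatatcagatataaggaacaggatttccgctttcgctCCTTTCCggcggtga
Rps27rt: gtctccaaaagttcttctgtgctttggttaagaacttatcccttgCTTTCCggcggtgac
Rpl38: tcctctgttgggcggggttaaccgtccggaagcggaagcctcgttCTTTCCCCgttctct
Rpl28: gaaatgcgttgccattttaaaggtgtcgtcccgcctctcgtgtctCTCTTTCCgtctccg
Rps21: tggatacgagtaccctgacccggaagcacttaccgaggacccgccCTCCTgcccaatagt
Rpl35a: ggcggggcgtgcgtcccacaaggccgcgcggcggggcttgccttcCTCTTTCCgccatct
The runs shown were 7, 6, 8, 8, 5 and 8 bases long in that order.

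Ribosomal protein genes supplied a large part of all transcripts, and a larger part in the Crect lacZ library. They made up 21.5% of UMIs over all wild-type cells (interval 21.47 to 21.49%) and 26.4% over all Crect lacZ cells (26.42 to 26.44%). Small-subunit genes gave 9.29% and large-subunit genes 12.2% of the wild-type UMIs, and 11.47% and 14.95% of the Crect lacZ UMIs. The ratio of small to large was therefore close in the libraries, at 0.763 and 0.767. Of the 100 genes with the highest levels, 65 in the wild-type library and 70 in the Crect lacZ library were ribosomal protein genes.

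Most of these genes had levels close to each other, with a short tail of paralogs far below. In both libraries 78 of the 87 lay at 1000 CPM or more, and 72 wild-type and 73 Crect lacZ levels lay within 2-fold of the median of the detected genes. That median was 2584 CPM in the wild-type and 3228 CPM in the Crect lacZ library. The order of the genes was much the same in the libraries, with a Spearman correlation of 0.946 over the 86 genes detected in both and 0.928 over the 78 at 1000 CPM or more in the wild-type library. These are correlations across genes, which are not independent replicates.

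Rpl41, which encodes the shortest ribosomal protein, stood well above the rest with 8468 CPM in wild-type and 9155 CPM in Crect lacZ cells. Its wild-type level was 3.28 times the median of the detected genes. Rps19, whose loss is a frequent cause of Diamond-Blackfan anaemia, had 4634 CPM in the wild-type library, with 4783 CPM in the Crect lacZ library. Rpl32 had 4387 and 4777 CPM. Rpl13 followed with 4387 and 4523 CPM, and Rps23, a protein of the decoding centre, with 4334 and 4869 CPM. The lowest member of the group at 1000 CPM or more in the wild-type library was Rpl5, which binds the 5S ribosomal RNA, at 1033 and 1414 CPM.

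**Figure D1:**
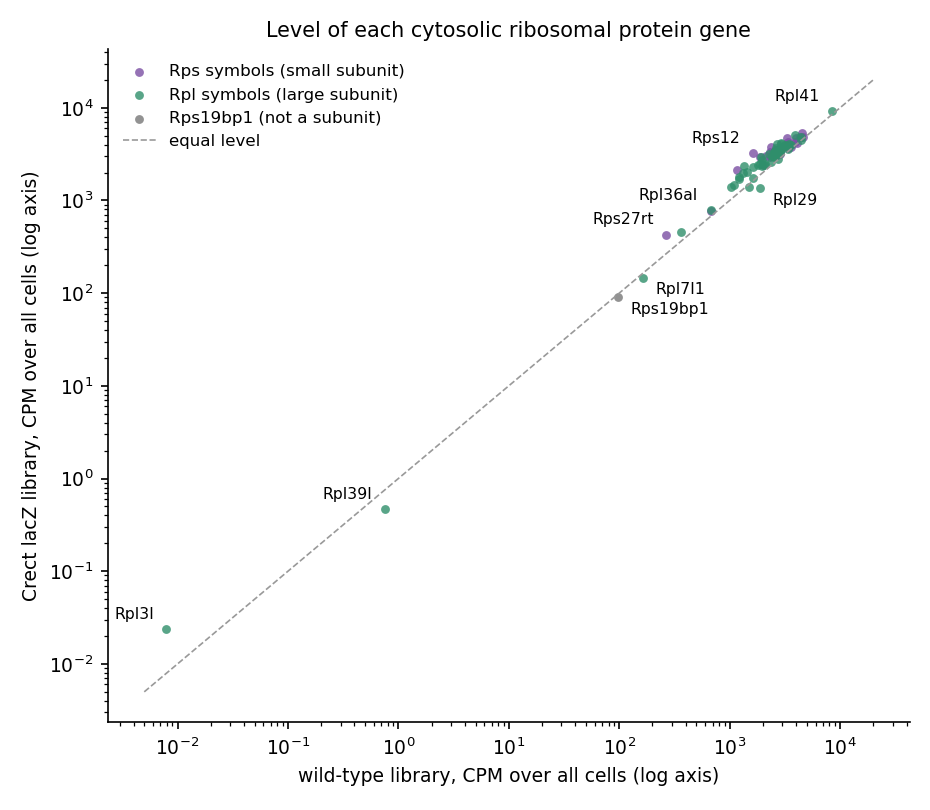
Each point is 1 ribosomal protein gene, with its CPM over all wild-type cells on the x axis and over all Crect lacZ cells on the y axis, both on log axes, and the dashed line marks equal levels. Most genes form 1 cluster above 1000 CPM and above the line, Rpl29 lies below it, and the low tail runs through Rps27rt, Rpl7l1 and Rps19bp1 to Rpl39l and Rpl3l. Rpl10l, with no wild-type UMI, is not drawn.

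The lowest non-zero wild-type levels belonged to genes that are not core subunits in most tissues. Rpl3l, known from muscle, had 1 UMI (0.00792 CPM) in the wild-type and 3 UMIs (0.0237 CPM) in the Crect lacZ library. Rpl39l, a paralog of Rpl39 best known from the testis, had 96 and 59 UMIs (0.760 and 0.467 CPM). Rps19bp1 had 98.49 and 90.03 CPM, Rpl7l1 163 and 146 CPM, Rps27rt 266 and 425 CPM, and the row named Rpl6l 360 and 452 CPM. Rpl10l, a retrocopy of Rpl10 that acts in male germ cells, had no wild-type UMI and 2 Crect lacZ UMIs, and its wild-type level was below 0.0292 CPM, the upper limit of its interval. Rps4l had no row in the files' gene table under that symbol and is not analysed here.

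Many ribosomal protein genes have processed copies elsewhere in the genome, and how reads that fit several copies were assigned is not stated in the sources used here. The last 400 bases of the main transcript were compared in stretches of 50 bases with all other GENCODE vM21 transcripts. Of the 86 genes with such a transcript, 64 shared at least 1 stretch with another gene, 41 shared 50% or more of them and 10 shared 90% or more. The levels of the last group, which includes Rps12 (96.0% shared), Rps27 (98.7%), Rps27rt (91.1%), Rpl36a (100%) and Rpl10 (100%), are therefore uncertain. The row named Rpl6l is annotated as a processed pseudogene.

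Of the 87 genes, 4 lie on the X chromosome: Rpl39 (2605 wild-type and 3641 Crect lacZ CPM), Rpl10 (2541 and 3359), Rps4x (3006 and 3737) and Rpl36a (1978 and 2342). Their levels lay among those of the other core genes.

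In the Crect lacZ library nearly all ribosomal protein genes were higher than in the wild-type library, by a moderate factor. Of 85 genes with 100 or more UMIs in the libraries together, 80 had a ratio above 1 and 5 below, with every interval clear of 1. The median ratio was 1.24, or 0.31 on the log2 scale, while the median over all genes of that depth was -0.06. A ratio of 1.5 or more was reached by 9 of the 85, against 4.82% of all 14079 genes. Only 1, the sparsely counted Rpl39l, was lower by that factor, against 9.39% of all genes. When the UMIs of haemoglobin and mitochondrial genes were left out of the totals, 6 remained at 1.5 or more and the shares became 23.1% and 27.9%.

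The largest ratios belonged to small-subunit genes and to Rpl12. Rps12 had 1638 CPM in wild-type and 3228 CPM in Crect lacZ cells, a ratio of 1.97 (1.96 to 1.98). Rps21 had 1172 and 2141 CPM, a ratio of 1.83 (1.82 to 1.84). Rpl12, a protein at the base of the stalk, had 1339 and 2354 CPM, a ratio of 1.76 (1.75 to 1.77). The shift was not shared by all: Rps19, Rpl13 and Rpl3 differed by only 1.03, 1.03 and 1.02 times. Rps27rt had a ratio of 1.60 (1.58 to 1.62).

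A few genes went the other way. Rpl29 fell from 1881 CPM in the wild-type to 1355 CPM in the Crect lacZ library, a ratio of 0.720 (0.716 to 0.725). Rpl7l1 had a ratio of 0.896 (0.879 to 0.914) and Rps19bp1 of 0.914 (0.891 to 0.938). Rpl39l had a ratio of 0.614 (0.436 to 0.858) on few UMIs, and 18 of its wild-type UMIs came from 1 megakaryocyte-like cell. Its levels were 0.399 CPM in wild-type and 0.406 CPM in Crect lacZ mesenchyme-like cells, and 28.3 and 2.91 CPM in megakaryocyte-like cells. Rpl22l1, a paralog of the RNA-binding protein Rpl22, had 1496 and 1403 CPM, a ratio of 0.938 (0.932 to 0.944), while Rpl22 itself had 1090 and 1482 CPM, a ratio of 1.36.

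The most shifted genes had similar ratios in separate cell classes of the same libraries. Rps12 had a ratio of 1.98 in mesenchyme-like, 1.89 in ectoderm-like, 1.80 in endothelium-like and 1.70 in erythroid-like cells. Rps21 had 1.78, 1.84, 1.79 and 1.80 in the same order, and Rpl29 had 0.717, 0.675, 0.653 and 0.696. The median ratio was 1.24 in mesenchyme-like and 1.15 in ectoderm-like cells. By transcript length, the median log2 ratio was 0.32 for the 20 genes of up to 600 bases, 0.26 for the 34 from 600 to 1000 bases and 0.34 for the 30 longer ones. With 1 library per genotype, genotype, pool and library preparation cannot be told apart.

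**Figure D2:**
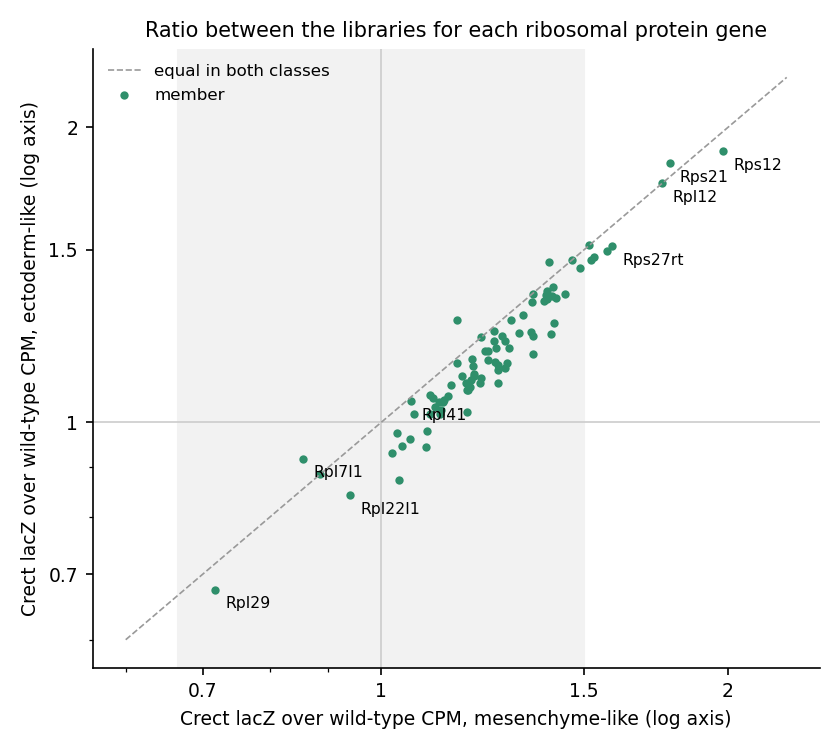
Each point is 1 of 84 ribosomal protein genes, with its Crect lacZ over wild-type CPM ratio in mesenchyme-like cells on the x axis and in ectoderm-like cells on the y axis, both on log axes; the grey band marks ratios within 1.5-fold in mesenchyme-like cells. The points run along the dashed line of equal ratios, most of them just below it, from Rpl29 (0.717 and 0.675) to Rps12 (1.98 and 1.89).

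Cells were grouped into classes without the use of ribosomal protein genes, and named from markers. Mesenchyme-like cells (6188 wild-type and 5461 Crect lacZ) were the largest class, followed by ectoderm-like (999 and 768), erythroid-like (229 and 140) and endothelium-like cells (218 and 123). Macrophage-like (37 and 27), crest glia-like (30 and 23) and megakaryocyte-like cells (27 and 20) were few. Neuron-like cells (2 and 13) were too few for a comparison. Each class held its own markers, such as Prrx1 in mesenchyme, Epcam in ectoderm, Cdh5 in endothelium, C1qa in macrophage-like and Sox10 in crest glia-like cells. In the megakaryocyte-like class all 5 markers used were lower in the Crect lacZ library, and Pf4, which encodes a platelet chemokine, had 13880 CPM in the wild-type and 2055 CPM in the Crect lacZ library; the part of this in the results below was not tested. Within the mesenchyme-like class, 2 clusters were mostly of the Crect lacZ library, with 10 and 325 cells in the first and 27 and 255 in the second.

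In both libraries the share of UMIs from ribosomal protein genes was highest in megakaryocyte-like cells, and mesenchyme-like cells had the lowest share apart from erythroid-like cells among the classes compared. It was 21.4% in wild-type and 26.3% in Crect lacZ mesenchyme-like cells, and 24.6% and 28.4% in ectoderm-like cells. Endothelium-like cells had 23.8% and 27.6%, macrophage-like cells 22.3% and 29.9%, and crest glia-like cells 22.2% and 28.4%. Megakaryocyte-like cells had 26.5% and 33.0%, and erythroid-like cells 12.6% and 14.3%.

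In erythroid-like cells globin genes alone took 60.7% of the wild-type and 57.5% of the Crect lacZ UMIs. Once globin and mitochondrial UMIs were left out of the totals, the ribosomal protein share of erythroid-like cells was 32.6% and 34.9%, against 22.1% and 27.4% in mesenchyme-like cells. The order of these classes thus turned with the denominator. Globin UMIs in mesenchyme-like cells, which lack globin expression of their own, were 0.378% of the wild-type and 0.178% of the Crect lacZ UMIs.

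In mesenchyme-like cells the interquartile range of single cells was 19.95 to 22.9% in the wild-type and 24.6 to 28.3% in the Crect lacZ library. The ranges from the 5th to the 95th percentile, 17.75 to 25.4% and 21.6 to 31.2%, overlapped. Cells of 1 library are not replicates of its genotype. When wild-type mesenchyme-like cells were split by depth into 4 equal groups, the share was, from the shallowest to the deepest, 21.9, 21.7, 21.3 and 21.0%, and in the Crect lacZ library it was 26.7, 27.0, 26.2 and 25.8%. Within the mesenchyme-like class, cells with a UMI of Shox2, Pax7, Gsc or Col9a1 had shares from 21.0 to 21.6% in the wild-type and from 25.9 to 26.6% in the Crect lacZ library. Ectoderm-like cells with a UMI of Gabrp, Aldh1a3 or Tfap2b had 23.4, 24.2 and 23.9% in the wild-type library, and 27.2, 28.3 and 27.6% in the Crect lacZ library. A gate on 1 UMI can favour deeper cells: the median depth of wild-type cells was 18659 UMIs with Gabrp, 16042 with Aldh1a3 and 14953 with Tfap2b, against 15001 for all wild-type ectoderm-like cells.

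**Figure D3:**
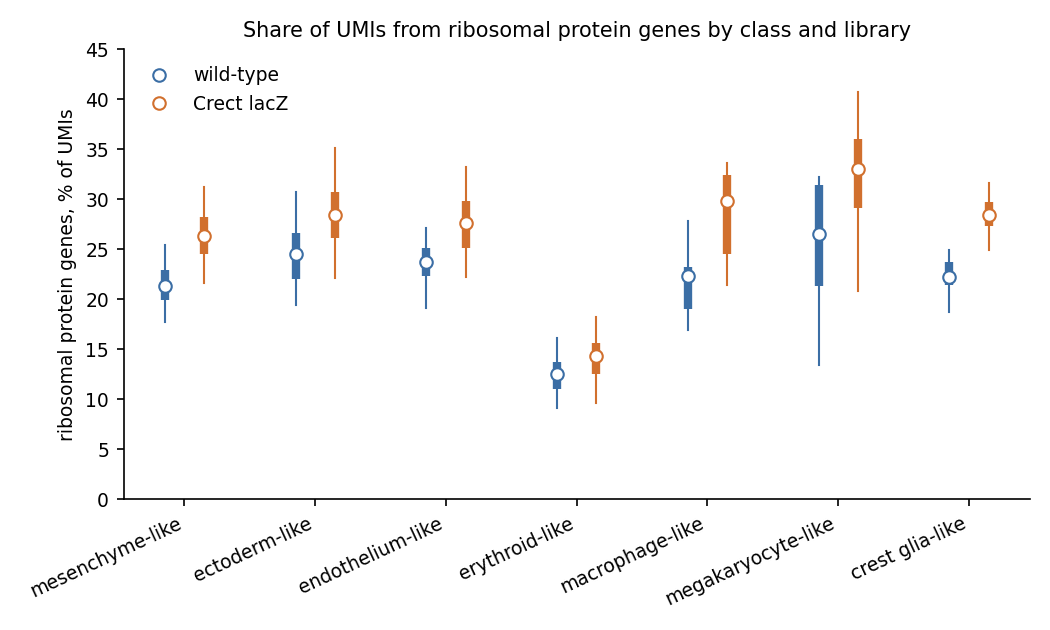
For each class and library, the open circle is the share of summed UMIs from ribosomal protein genes, the thick bar the interquartile range of cells and the thin line the 5th to 95th percentile of cells. The Crect lacZ value lies above the wild-type value in each of the 7 classes, and erythroid-like cells lie lowest (12.6 and 14.3%).

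For the comparison of classes, UMIs were summed per class and library and fitted together with edgeR's quasi-likelihood test on 13007 genes, with a term for library and p-values adjusted by Benjamini and Hochberg's method. The fit scales libraries by TMM, which sets the bulk of genes to no change. A call is an adjusted p under 0.05, and 85 of the 87 genes passed the filter on low counts, Rpl3l and Rpl10l being the others. Each class was set against mesenchyme-like cells, so the 6 comparisons share that class. The 2 libraries are the only replicates and differ in genotype. The p-values measure only the spread between these libraries that the library term leaves, estimated from all 7 classes together. Each comparison therefore also depends on the scatter of classes outside it. The cells that define a class are the cells measured.

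In ectoderm-like cells, the surface epithelium, few ribosomal protein genes were called although most leaned upward. Of the 85, 3 were higher, against 21.6% of all genes, and 1 was lower, against 20.6%. The log2 fold was positive in both libraries for 74 of them, with a median of 0.19 where all genes had -0.03. Rps27, which has a zinc-finger fold, had 2768 CPM in wild-type and 3425 CPM in Crect lacZ mesenchyme-like cells, and 3791 and 4384 CPM in ectoderm-like cells. Ectoderm lay above mesenchyme in each library, with a fold of 1.36 (1.09 to 1.69, adjusted p = 0.0231). Rps27rt was higher by 1.31 times (1.14 to 1.503, adjusted p = 0.00187), and Rps27 is the gene with which it shares most sequence. Rpl38, whose loss in the mouse is known to alter Hox translation and skeletal patterning, had 1581 and 2222 CPM in mesenchyme and 2078 and 2797 CPM in ectoderm, a fold of 1.32 (1.05 to 1.66, adjusted p = 0.0497). Rpl7l1 was the lower one, with 180 and 154 CPM in mesenchyme and 134 and 123 CPM in ectoderm, a fold of 0.793 (0.689 to 0.913, adjusted p = 0.00836). With erythroid-like cells left out of the fit, a choice made after seeing the data, 25 were higher and 1 lower. In that fit 21.6% of all genes were higher and 2672 of 12452 lower. With no library term none was called, and no share of all genes is given for that fit.

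In endothelium-like cells, which line blood vessels, 15 of 85 were higher, against 24.7% of all genes, and none was lower, against 28.6%. The median log2 fold was 0.28 and that of all genes -0.08. Rps2, which lies near the messenger RNA entry channel of the small subunit, had the largest fold apart from Rpl39l: it had 3706 and 4112 CPM in mesenchyme and 5955 and 6240 CPM in endothelium. Both endothelium values lay above both mesenchyme values, with a fold of 1.75 (1.32 to 2.33, adjusted p = 0.00150). Rpl28 was higher by 1.43 times (1.13 to 1.82, adjusted p = 0.0113), and Rplp0, the anchor of the stalk, by 1.40 times (1.06 to 1.84, adjusted p = 0.0376). Rpl4 was higher by 1.40 times (1.082 to 1.798, adjusted p = 0.0261). The count of higher genes was 58 with erythroid-like cells left out of the fit, against 26.2% of all genes. It was 2 with no library term, for which no share of all genes is given.

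Erythroid-like cells, which make embryonic red cells, gave the widest difference, and its sign rested on the scaling. With TMM scaling, 81 of 85 were higher, against 21.0% of all genes, and 1 was lower, against 28.8%. The median log2 fold was 0.90, while that of all genes was -0.26. When cells were scaled by library size alone, none was higher, against 4.35% of all genes. By that scaling 82 were lower, against 10644 of 13007 genes, and the median of the 85 was -0.87. All genes then had a median of -2.06, so the ribosomal protein genes lay 1.16 above the median gene with TMM and 1.18 above it by library size. With no library term 52 were higher, and no share of all genes is given for that fit.

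Rpsa, the laminin-receptor protein of the small subunit, shows what the scaling does. It had 2114 and 2978 CPM in mesenchyme-like cells and 2078 and 3196 CPM in erythroid-like cells, so the unscaled levels of the classes were close in each library. After TMM its fold was 3.48 (2.73 to 4.42, adjusted p = 8.33e-09). The stalk genes Rplp0 and Rplp1 were higher by 3.13 and 2.75 times after TMM (adjusted p = 4.00e-07 and 3.62e-07), and Rps2 by 2.81 times (adjusted p = 2.19e-06). By CPM, Rps12 had 1606 and 3180 in mesenchyme and 1099 and 1869 in erythroid-like cells. Rpl7l1 was lower on both scales, with 37.5 and 40.3 CPM in erythroid-like cells and a TMM fold of 0.790 (0.661 to 0.944, adjusted p = 0.0271). It was not called under DESeq2, in the fit of only the 2 classes compared or with no library term.

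Macrophage-like cells had 26 of 85 higher, against 19.3% of all genes, and none lower, against 21.2%. The median log2 fold was 0.32, and that of all genes -0.21. Rps29, a zinc-binding protein of the small subunit, had 3361 and 4672 CPM in mesenchyme and 4919 and 6739 CPM in macrophage-like cells, and each library showed the rise. Its fold was 1.69 (1.34 to 2.12, adjusted p = 5.35e-04). Rps12 was higher by 1.66 times (1.29 to 2.13, adjusted p = 0.00170), Rplp1 by 1.65 times (1.29 to 2.11, adjusted p = 0.00180) and Rpl36al, a paralog of Rpl36a, by 1.64 times (1.32 to 2.05, adjusted p = 6.62e-04). The count was 64 with erythroid-like cells left out of the fit, against 21.7% of all genes. It was 2 with no library term, for which no share of all genes is given.

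Megakaryocyte-like cells, the precursors of platelets, were compared only after the data had been seen. There 63 of 85 were higher, against 21.7% of all genes, and none was lower, against 21.8%. The median log2 fold was 0.51, and that of all genes -0.11. Rplp1 had 2605 and 3942 CPM in mesenchyme and 4538 and 7672 CPM in megakaryocyte-like cells, a fold of 2.102 (1.64 to 2.69, adjusted p = 2.56e-05). Rps12 was higher by 1.95 times (1.52 to 2.500, adjusted p = 1.03e-04), Rpl36al by 1.86 times (1.49 to 2.32, adjusted p = 5.20e-05) and Rpl36 by 1.73 times (1.36 to 2.20, adjusted p = 5.19e-04). Single cells of the class had an interquartile range of 21.3 to 31.4% of UMIs in the wild-type and 29.1 to 36.1% in the Crect lacZ library. Of 8 macrophage markers, C1qa and Mrc1 were at 0 in the class in both libraries, and C1qb and C1qc at 3.39 CPM or less. Tyrobp had 443 and 546 CPM and Fcer1g 679 and 388 CPM, against 1.81 and 1.18 and 2.34 and 1.35 CPM in mesenchyme. Cx3cr1 had 55.4 and 99.1 CPM, against 0.479 and 0.426 in mesenchyme, and Csf1r 30.5 and 49.5 CPM, against 0.399 and 0.335. The platelet marker Ppbp had 2394 CPM in the wild-type and 313 CPM in the Crect lacZ library. The part of this make-up in the 63 calls was not tested. With no library term 12 were higher, and no share of all genes is given for that fit.

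Crest glia-like cells, marked by Sox10, had ribosomal protein levels near those of mesenchyme. The single gene called was Rplp1, higher by 1.45 times (1.13 to 1.86, adjusted p = 0.0382), against 6.58% of all genes called higher, and none was lower, against 7.32% of all genes. It had 3807 and 5980 CPM in crest glia-like cells. The median log2 fold of the 85 was 0.01, and that of all genes -0.15. By edgeR's unadjusted p under 0.05, 4 were higher and none lower, with no share of all genes taken at that threshold. DESeq2 called 7 higher, against 9.11% of all genes, and none lower, against 667 of 13007 genes. No ribosomal protein gene was called higher with no library term, with no filter on low counts or with doublets kept. Shares of all genes are not given for those fits.

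**Figure D4:**
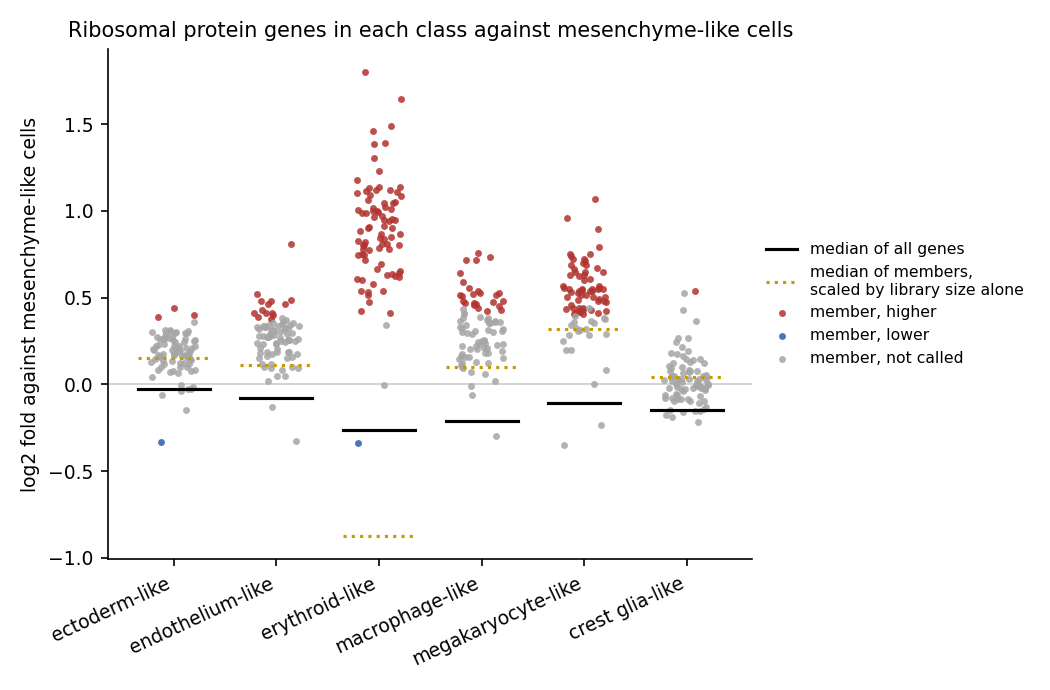
Each point is the log2 fold of 1 ribosomal protein gene in a class against mesenchyme-like cells after TMM scaling, coloured by whether its adjusted p was under 0.05; Rpl39l, whose fits range from -5.84 to 5.35, is not drawn. Black lines mark the median of all genes and dotted lines the median of the members when scaled by library size alone, which lies at -0.87 for erythroid-like cells, below their points.

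Small- and large-subunit genes had close medians. The median log2 fold of the 33 small-subunit and 51 large-subunit genes tested was 0.20 and 0.17 in ectoderm, 0.28 and 0.29 in endothelium, and 0.88 and 0.91 in erythroid-like cells. It was 0.33 and 0.32 in macrophage-like cells and 0.44 and 0.52 in megakaryocyte-like cells.

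Of the genes linked to Diamond-Blackfan anaemia, 9 were followed as a list. In erythroid-like cells all 9 were higher after TMM scaling, as were 81 of the 85 ribosomal protein genes and 21.0% of all genes, with log2 folds from 0.47 for Rps26 to 1.09 for Rps7 and a median of 0.90. By library size alone the sign of the whole group was the opposite, as above. In endothelium, where 24.7% of all genes were called higher, Rpl5 was the 1 called, with a log2 fold of 0.38 (adjusted p = 0.0497). In macrophage-like cells, where 19.3% were, it was Rpl35a, with 0.64 (adjusted p = 0.00205). In megakaryocyte-like cells, where 21.7% were, 4 were called, Rpl35a, Rpl11, Rpl5 and Rps24. In ectoderm and crest glia none was called. Rps10, Rps19, Rps26 and Rps7 were called in erythroid-like cells only, and whether their folds differ between the classes was not tested.

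Some paralogs differed from their parent genes in how they varied between classes. Rpl22l1 and Rpl22 were of like abundance: the paralog had 1.36 UMIs per UMI of Rpl22 in wild-type and 0.948 in Crect lacZ mesenchyme-like cells, and 1.11 and 0.753 in erythroid-like cells, the lowest of the classes in each library. Rps27l, which is induced by p53 and belongs also to its target genes, had 0.252 and 0.230 UMIs per UMI of Rps27 in mesenchyme. In ectoderm it had 0.170 and 0.151, the lowest of the classes, and in megakaryocyte-like cells 0.335 and 0.315, the highest. Its own log2 fold in ectoderm was -0.15 (adjusted p = 0.463), and in megakaryocyte-like cells it was higher by 1.55 times (adjusted p = 0.00222).

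Rpl36al had 0.332 and 0.329 UMIs per UMI of Rpl36a in mesenchyme, and 0.324 and 0.330 in ectoderm. It had 0.531 and 0.449 in macrophage-like and 0.405 and 0.497 in erythroid-like cells. In endothelium it had 0.398 and 0.382, in megakaryocyte-like cells 0.4605 and 0.382, and in crest glia-like cells 0.4195 and 0.351. The values of all these classes except ectoderm lay above the mesenchyme value in each library. Rpl7l1, which takes part in ribosome assembly, had 0.0800 and 0.0495 UMIs per UMI of Rpl7 in mesenchyme and 0.0300 and 0.0260 in erythroid-like cells. Rps27rt kept nearly the same ratio to Rps27 in every class compared, from 0.0874 to 0.106 in the wild-type and from 0.111 to 0.125 in the Crect lacZ library. Rpl6l kept a ratio to Rpl6 from 0.118 to 0.136 and from 0.122 to 0.138.

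**Figure D5:**
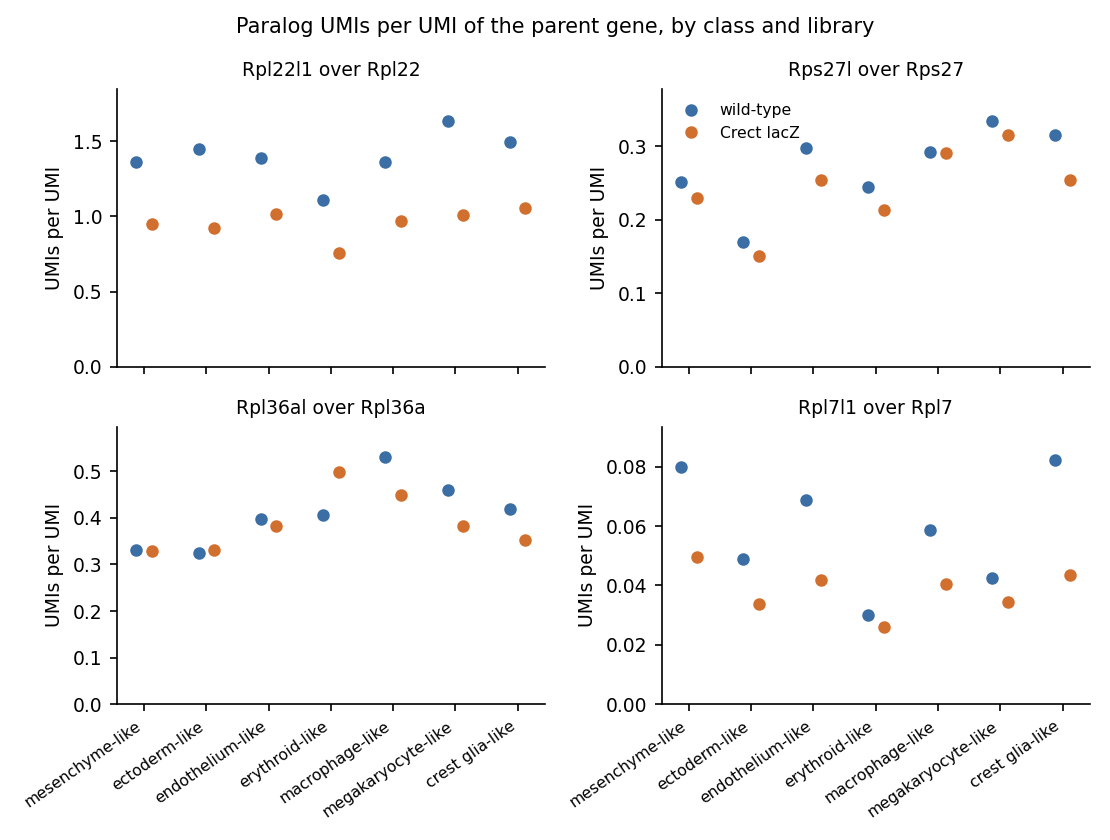
Points give UMIs of a paralog per UMI of its parent gene in each class, wild-type in blue and Crect lacZ in orange, on axes that start at 0. Rps27l over Rps27 is lowest in ectoderm-like cells (0.170 and 0.151), and Rpl7l1 over Rpl7 is lowest in erythroid-like cells (0.0300 and 0.0260).

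Rpl39l was read in few cells of any class. Its UMIs lay in 26 of 6188 wild-type and 27 of 5461 Crect lacZ mesenchyme-like cells, and in 1 of 999 and 1 of 768 ectoderm-like cells. In endothelium-like cells 6 of 218 wild-type cells held 22 UMIs and 3 of 123 Crect lacZ cells held 15, at a median depth of 23980 and 33241 UMIs per cell against 13371 and 17380 in mesenchyme-like cells. The fit called it higher in endothelium (adjusted p = 1.42e-04), macrophage-like (adjusted p = 7.51e-04) and megakaryocyte-like cells (adjusted p = 2.19e-06), and these calls rest on few cells. Of 25 UMIs in wild-type megakaryocyte-like cells, 18 came from 1 cell, and the Crect lacZ cells of that class held 2 UMIs.

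Genes that work with the ribosome were read from lists, and their counts below hold for TMM scaling. The shares of all genes called higher and lower were 21.6 and 20.6% in ectoderm, 24.7 and 28.6% in endothelium, 21.0 and 28.8% in erythroid-like, 19.3 and 21.2% in macrophage-like, 21.7 and 21.8% in megakaryocyte-like and 6.58 and 7.32% in crest glia-like cells. Other parts of the cytosolic ribosome included Fau and Gnb2l1, the older symbol of Rack1. Both were higher in erythroid-like and in megakaryocyte-like cells, Fau was also higher in macrophage-like cells, and neither was called in ectoderm, endothelium or crest glia. Fau had a log2 fold of 0.84 in macrophage-like cells and 0.66 in megakaryocyte-like cells.

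Of 39 translation factors, 27 were higher and 2 lower in erythroid-like cells after TMM, with a median log2 fold of 0.60. There were 10 higher and 2 lower in endothelium, 9 and 1 in megakaryocyte-like cells, 1 and 3 in macrophage-like cells, 1 and 1 in ectoderm and 1 and none in crest glia. Pabpc1, the poly(A)-binding protein, had a log2 fold of 2.04 in erythroid-like cells (adjusted p = 1.01e-09), and Eif4e, which binds the cap, one of -0.75 in macrophage-like cells (adjusted p = 1.19e-04).

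Of 65 genes of ribosome biogenesis and RNA polymerase I tested, 15 were higher and 13 lower in erythroid-like cells. The count higher was near the share of all genes (21.0%), while 28.8% of all genes were lower. Their median log2 fold was -0.02, where all genes had -0.26 and the ribosomal protein genes 0.90. Npm1, a nucleolar chaperone, had -1.07 (adjusted p = 1.95e-04), while Sbds, which frees the large subunit for use, had 1.09 (adjusted p = 1.62e-06). In endothelium 24 were higher and 5 lower, in megakaryocyte-like cells 25 and 2, in ectoderm 9 and 4, in macrophage-like cells 8 and 5, and in crest glia 3 and 2. Nhp2 had log2 folds of 1.30 in endothelium and 1.15 in megakaryocyte-like cells, and Tcof1, mutated in a craniofacial syndrome, had -0.49 in endothelium (adjusted p = 0.00114).

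The Myc and mTOR list had 8 higher and 4 lower of 26 in ectoderm, 6 and 8 in endothelium, 4 and 6 in erythroid-like, 6 and 7 in macrophage-like, 5 and 3 in megakaryocyte-like and 2 and 1 in crest glia-like cells. Eif4ebp1, a repressor of cap-dependent translation, had a log2 fold of 1.35 in endothelium (adjusted p = 8.18e-11) and Mycn one of -1.85 in erythroid-like cells (adjusted p = 2.05e-06). Of 19 p53 targets tested, 10 were higher and 1 lower in ectoderm, where Cdkn1a had a log2 fold of 5.28 (adjusted p = 1.30e-16) while Rps27l, named above, was not called. Counts for p53 targets were 6 and 3 in endothelium, 3 and 4 in erythroid-like, 5 and 3 in macrophage-like, 3 and 6 in megakaryocyte-like and 1 and 1 in crest glia-like cells.

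Mitochondrial ribosomal protein genes, which serve the separate ribosome of that organelle, were set beside the cytosolic ones. Of 76 tested, 31 were higher and 6 lower in erythroid-like cells, with a median log2 fold of 0.21 after TMM, less than the 0.90 of the cytosolic group. In ectoderm 3 were higher and 9 lower, with a median of -0.10, where the cytosolic group had 0.19. In endothelium the counts were 21 and 7, in macrophage-like cells 10 and 6, in megakaryocyte-like cells 21 and 3, and in crest glia 3 and none.

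The genes most like the summed ribosomal protein genes over the 14 class sums were sought among 2436 others with a mean of 50 CPM or more. The highest Pearson correlation of log2 levels after TMM was that of Eef2, the elongation factor that moves the ribosome along the message, at 0.966. It was followed by Gm11808 at 0.963, Tomm7 at 0.949, Cs at 0.946, Rpl27-ps3 at 0.929, Mrpl30 at 0.928, Rpl23a-ps3 at 0.925 and Gm10073 at 0.917. Rpl27-ps3, Rpl23a-ps3 and Gm10073 are the genes that share most sequence with Rpl27, Rpl23a and Rplp1, and the part of shared reads in their likeness was not tested. The sums share their libraries and their scaling, and these correlations are a description.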

How the data were processed

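For each of the 2 libraries, made with 10x Genomics 3' chemistry per the labels' protocols, the authors deposited a matrix of unnormalized UMI counts. Cell Ranger 2.0 and mm10 are named in the submitters' processing notes. No barcode filter or handling of reads matching several genes is stated in the sources used here. The members and gene lists were chosen with earlier results of these data known. Cells with 500 or more genes and at most 10% mitochondrial UMIs were kept, which left out 57 and 207 barcodes. Doublets were scored against simulated pairs, and 179 barcodes of the wild-type (2.26%) and 112 of the Crect lacZ library (1.68%) were removed for class comparisons, as many as 0.8% per 1000 barcodes gives once pairs within 1 class are set aside. That number was chosen after the full rate was seen to remove many crest glia-like cells. Clustering used 2000 variable genes without the members and listed genes, 30 principal components, 15 neighbours and Leiden resolution 1 (leidenalg 0.10.2, scanpy 1.11.5). Sums per class and library, for classes with 10 or more cells in each library, were tested with edgeR 4.0.16 in R 4.3.3 (TMM, filterByExpr, quasi-likelihood), with 6 residual degrees of freedom and a median prior of 15.5. On simulated counts of 13007 genes, changes of 1.5 times were recovered in 95.5% of cases for ectoderm, 86.6% for endothelium, 91.0% for erythroid-like, 43.3% for macrophage-like, 43.3% for megakaryocyte-like and 35.8% for crest glia-like cells, and 2-fold changes in 100% for ectoderm, endothelium and erythroid-like cells, 77.6% for macrophage-like, 92.5% for megakaryocyte-like and 79.1% for crest glia-like cells. The changed genes were drawn from all genes with a mean over 20 CPM, and levels were otherwise equal in every class and library. The rates for ribosomal protein genes, most of them at 1000 CPM or more, may differ and were not tested. CPM, ratios and exact Poisson or binomial intervals were computed with scipy 1.17.1. Gene positions and types come from GENCODE vM21, in which all 87 members were found, and promoters from RefSeq.

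Genes were named by a rule: the 6 highest and 6 lowest non-zero wild-type levels, all paralogs, the 9 anaemia-linked members, up to 4 called members per direction and class with the largest fold (the libraries having the same sign, mean at least 20 CPM), 4 ratios each way between libraries, and genes of related lists by the same rule, of which only some are printed. Results on a few genes that the rule names are not reported here. Others, such as Rpl5 as the lowest core gene, the X-linked genes and Pf4, were chosen after their values were seen. Alternatives were other scalings, DESeq2 1.42.0, no filter on low counts, 2 classes per fit, no library term, doublets kept, a mitochondrial limit of 5%, Leiden resolution 0.5 and each library alone.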

Additional observations from a re-analysis of the deposited data

Results flagged for a closer look

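Rpl15 moved in opposite directions in the libraries when macrophage-like cells were set against mesenchyme-like cells. It had a log2 fold of -0.14 in the wild-type and 0.23 in the Crect lacZ library. The difference was not tested, and the wild-type class held 37 cells and the Crect lacZ class 27.

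The 16 -ps symbols that the choice of genes leaves out held 1630 CPM in the wild-type and 3050 CPM in the Crect lacZ library. The most abundant was Rps12-ps3, with 366 and 775 CPM, beside 1638 and 3228 CPM for Rps12, with which it shares sequence.

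Barcodes above the mitochondrial limit, 57 in the wild-type and 207 in the Crect lacZ library, had 13.4% and 16.8% of their UMIs in ribosomal protein genes, below the 21.5% and 26.4% of the cells kept.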

How the results depend on the processing

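Each class comparison sets classes of the same library against each other, with library as the block, and dropping that term is one of the alternatives. Values below are counts of ribosomal protein genes called against mesenchyme-like cells, or their median log2 fold, and the cause of each shift was not tested. Shares of all genes called are given only for scaling by library size, DESeq2 and the fit without erythroid-like cells. The counts under the other alternatives cannot be set against such a share.

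With no library term, the genes called higher numbered 0 in ectoderm, 2 in endothelium, 52 in erythroid-like, 2 in macrophage-like, 12 in megakaryocyte-like and 0 in crest glia-like cells, and those lower 0 in ectoderm and 0 in erythroid-like cells. Scaling by library size alone gave 14 higher and 2 lower in ectoderm, 2 lower in endothelium (median 0.11), 0 higher and 82 lower in erythroid-like cells (median -0.87, a reversal), 1 lower in macrophage-like cells (median 0.10), 2 lower in megakaryocyte-like cells (median 0.32) and 4 higher in crest glia-like cells. By that scaling 4.35% of all genes were higher in erythroid-like cells and 10644 of 13007 lower. The shares of all genes higher were 20.3% in ectoderm and 6.68% in crest glia-like cells. Of 13007 genes, 2942 were lower in ectoderm, 4845 in endothelium, 3781 in macrophage-like and 3622 in megakaryocyte-like cells. TMM without the members gave a megakaryocyte median of 0.55. DESeq2 called 19 higher in ectoderm, 47 higher and 1 lower in endothelium, 0 lower in erythroid-like, 70 higher in macrophage-like and 7 higher in crest glia-like cells, with medians of 0.61 in megakaryocyte-like and 0.11 in crest glia-like cells. The shares of all genes that DESeq2 called higher were 19.4% in ectoderm, 24.7% in endothelium, 23.8% in macrophage-like and 9.11% in crest glia-like cells. It called 3091 of 13007 genes lower in endothelium and 2768 in erythroid-like cells. With no filter on low counts, ectoderm had 1 higher and 2 lower, macrophage-like cells 17 higher, megakaryocyte-like cells 1 lower (median 0.46) and crest glia-like cells 0 higher. Fitting only the 2 classes compared gave 21 higher and 2 lower in ectoderm, 73 higher and 1 lower in endothelium, 0 lower in erythroid-like cells, a megakaryocyte median of 0.44 and 7 higher in crest glia-like cells. Keeping doublets gave 2 lower in ectoderm, 1 lower in endothelium, 1 lower in megakaryocyte-like and 0 higher in crest glia-like cells. A mitochondrial limit of 5% gave 2 lower in ectoderm, 28 higher and 1 lower in endothelium, 68 higher in macrophage-like cells (median 0.49) and 2 higher in crest glia-like cells. Leiden resolution 0.5 gave 2 lower in ectoderm, 25 higher in endothelium and 61 higher and 1 lower in macrophage-like cells. At that resolution and at that limit the macrophage- and megakaryocyte-like cells formed 1 class, so the latter have no value. Leaving erythroid-like cells out of the fit, chosen after seeing the data, gave 25 higher in ectoderm and 58 higher and 1 lower in endothelium. It gave 64 higher in macrophage-like cells, 1 lower in megakaryocyte-like cells and 6 higher in crest glia-like cells. In that fit 21.6% of all genes were higher in ectoderm, 26.2% in endothelium, 21.7% in macrophage-like and 7.49% in crest glia-like cells. Of 12452 genes, 3630 were lower in endothelium and 2926 in megakaryocyte-like cells.

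Leaving out a library gives the fold of the other with no test: the median log2 fold ranged from 0.14 to 0.24 in ectoderm, 0.25 to 0.32 in endothelium, 0.64 to 1.08 in erythroid-like, 0.20 to 0.43 in macrophage-like, 0.48 to 0.52 in megakaryocyte-like and -0.03 to 0.07 in crest glia-like cells. The wild-type share of UMIs was 21.52% at the 5% limit, 21.46% with no limit, 21.51% without doublets and 23.11% without haemoglobin and mitochondrial UMIs. The Crect lacZ share was 26.55%, 26.33% and 27.86% at the 5% limit, with no limit and without those UMIs. The median log2 ratio between libraries stayed between 0.28 and 0.31. The neuron comparison was not run, since the wild-type library held 2 such cells.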
